A study of Mus musculus with 16 samples.

Results

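NADPH is the reduced cofactor that cells spend on removing peroxides and quinones and on making lipids. The 9 genes described here encode enzymes that make it, or that belong to the pathway that makes it: the pentose phosphate pathway (G6pdx, Pgls, Pgd, Taldo1 and Tkt), malic enzyme (Me1), the NADP-linked isocitrate dehydrogenases (Idh1 and Idh2) and the transhydrogenase of the mitochondrial inner membrane (Nnt). They are named by function, and the rule uses no measured value, although earlier results of these data were known when it was set. All 9 were among the 51912 genes counted, and 8 were among the 15380 genes whose mean reached 1 CPM, the minimum for testing (CPM is a gene's counts divided by the library's total and scaled to the same total in all libraries). Nnt fell below it.

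The RNA was from the RPE (retinal pigment epithelium), a sheet of pigmented cells that supports the photoreceptors. The mice were male, C57BL/6 and 40 weeks old. Wild-type mice and mice knocked out for Sucnr1, which encodes a receptor for succinate, were left untreated or exposed to hydroquinone, given in the study as a way to induce oxidative stress. RNA of single eyes gave 16 libraries, 4 for each combination of genotype (wild type, then knockout) and exposure (untreated, then hydroquinone). The titles name 2, 4, 3 and 4 mice in these groups, in that order, since 3 mice gave both eyes, whereas the protocol gives 4 animals in each group, and the titles were followed. How the knockout allele was made, and the dose, route and length of the exposure, are not given in the sources used here. No other genetic change is named in the labels of any group.

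In the cytosol, glucose-6-phosphate enters the pentose phosphate pathway through glucose-6-phosphate dehydrogenase, and both dehydrogenase steps of its oxidative branch reduce NADP to NADPH. The branch that follows shuffles sugar phosphates back toward glycolysis, and malic enzyme and cytosolic isocitrate dehydrogenase add NADPH from malate and isocitrate. In the RPE, NADPH is known to serve the glutathione and thioredoxin systems in a tissue with a high oxidant load, and the reductases that handle retinal from photoreceptors.

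Library totals lay between 21113549 and 35332444 counts. All 12 RPE markers examined were present in every library, with a summed level of 20825 to 32600 CPM. Other tissues were also present: 15 rod markers summed to 264 to 25156 CPM and 7 corneal epithelium markers to 2214 to 24779 CPM. The range with hydroquinone overlapped the range without it for each of the 9 marker lists examined, but some medians differed. The median sum of 6 oligodendrocyte markers was 3536 CPM without and 283 CPM with hydroquinone. For rod markers it was 3075 and 1936 CPM, and in knockout alone 2376 and 367 CPM. For corneal markers it was 5765 and 6464 CPM, and in wild type alone 6620 and 12711 CPM. What part these differences had in the levels of the members was not tested. Counts of Sucnr1 itself were between 0 and 17 in wild-type libraries and between 0 and 3 in knockout libraries, so at this depth it could not check the genotype labels. Levels are in CPM after TMM scaling, and each mean ± SD is over 4 libraries unless another n is stated. The eyes of a mouse count as separate libraries in the main test, so its p-values measure the spread between libraries and not between mice alone. In RNA from whole tissue, fewer cells of a type and less RNA per cell cannot be told apart.

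Promoter sequences are shown for Pgd and G6pdx because these were the members whose libraries separated by hydroquinone. They are from RefSeq (GRCm38.p6), which held a promoter for 8 of the 9 genes, and are written 5′ to 3′ on the strand of the gene. The first is the stretch of the Pgd promoter upstream of all annotated exons, chr4:149166772-149166955 on the minus strand. The second is a site in the G6pdx promoter, chrX:74428919-74428947 on the minus strand, with capitals marking a match to TGACNNNGC, the core of the antioxidant response element, read on the opposite strand.
Pgd: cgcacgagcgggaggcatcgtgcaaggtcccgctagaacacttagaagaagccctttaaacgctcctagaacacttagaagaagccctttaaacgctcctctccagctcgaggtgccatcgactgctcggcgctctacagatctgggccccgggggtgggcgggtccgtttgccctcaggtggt
G6pdx: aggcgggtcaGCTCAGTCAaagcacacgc
The match in G6pdx begins 57 bases before the start that RefSeq gives. GENCODE places the start of the gene further upstream, so the match lies within an exon it annotates. Both strands of the 250 bases before each RefSeq start were searched. Of the 11 such windows of the 8 genes, 1 held the motif, against 10.2% of all 32851 windows of this length, so the members' share was near the background. No match says only that these letters are not in this window.

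Levels of different genes were compared per kilobase of annotated exon, over all 16 libraries. Taldo1, which encodes transaldolase, had the highest level, at 191 ± 23 CPM per kb. Tkt, which encodes transketolase, followed at 84.4 ± 62.5 CPM per kb, and its range of 38.8 to 297 contained those of both neighbours in this order. Me1 had 62.3 ± 11.3 CPM per kb. Idh1 (40.9 ± 4.1), G6pdx (35.1 ± 7.2) and Idh2 (33.7 ± 4.5) had overlapping ranges in CPM per kb and were not separated from each other by their spread. Pgd had 20.9 ± 5.6 CPM per kb, and Pgls, for the lactonase between both dehydrogenase steps, had 7.17 ± 2.10. Nnt was at 0.043 ± 0.020 CPM per kb. The order rests on exon lengths that count every annotated exon of a gene.

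Within groups, the levels of most members varied little between libraries. The coefficient of variation of Idh1, taken within each group, had a median of 7.79% and a range of 5.88% to 9.46%. That of Pgd ranged from 8.60% to 15.0% and that of G6pdx from 5.86% to 15.2%. Tkt varied most among the 8 tested members, from 16.4% in untreated knockout to 83.0% in wild type with hydroquinone. Eyes of 1 mouse also differed. For Tkt the higher eye exceeded the lower by 2.40-fold in the first untreated wild-type mouse, by 1.61-fold in the second and by 1.09-fold in the untreated knockout mouse. For Pgd the same ratios were 1.04, 1.16 and 1.03.

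**Figure D1:**
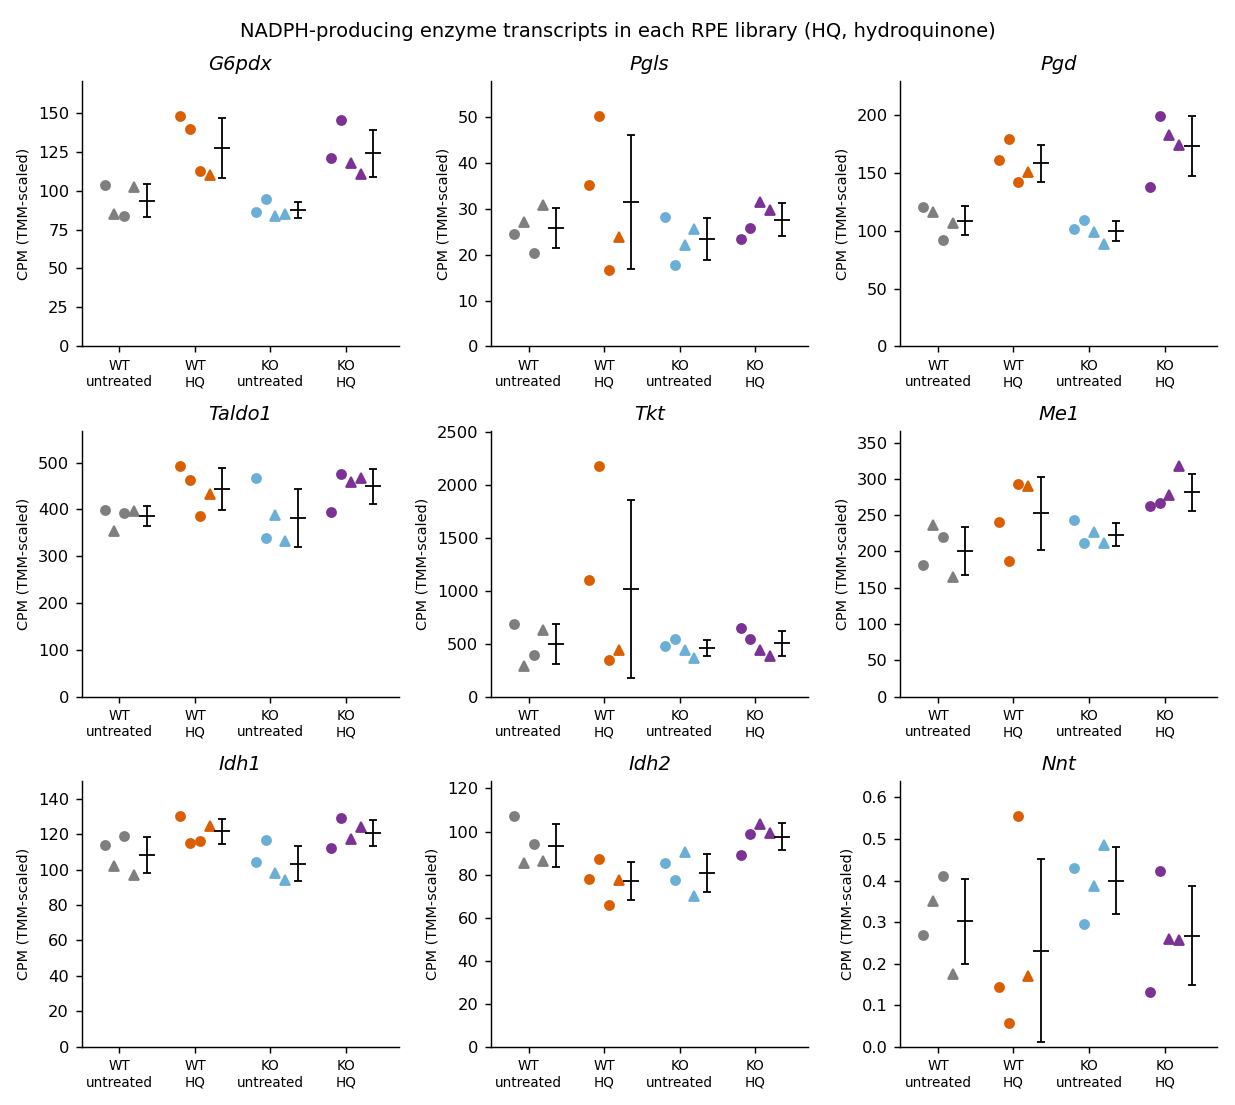
Level of each member in CPM (TMM-scaled) in every library, with 1 panel per gene and 4 groups of 4 libraries (HQ, hydroquinone; WT, wild type; KO, Sucnr1 knockout). Circles are libraries whose identifier has no letter, triangles those with a letter, and the bar with whiskers is the group mean ± SD; all 8 hydroquinone libraries lie above all 8 untreated ones for Pgd and G6pdx, and the highest Tkt and Pgls values are in the same wild-type hydroquinone library.

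With hydroquinone, Pgd rose, and G6pdx was higher in every exposed library but did not pass the test. Averaged over genotype, 1 of the 8 tested members passed (edgeR quasi-likelihood F test, Benjamini-Hochberg adjusted p below 0.05 over all genes), against 0.0845% of all tested genes in that comparison. In knockout mice 1 of 8 passed, against 0.0455% of all genes, and it was again Pgd. In wild type 0 of 8 passed, against 0.0065% of all genes. DESeq2 called 1 of 8 there, Pgd, and it called 20 of all 15380 tested genes. At an unadjusted p below 0.05, members that were higher with hydroquinone numbered 4 of 8 in wild type (1.43% of all genes), 5 of 8 in knockout (2.07%) and 5 of 8 averaged over genotype (2.75%). Members lower with hydroquinone at that level numbered 1 of 8 in wild type (2.85% of all genes), which was Idh2, 0 of 8 in knockout (0.897%) and 0 of 8 averaged over genotype (2.96%).

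The sign of the difference was also counted for each member. The fitted difference was above 0 for 7 of 8 members in wild type, 8 of 8 in knockout and 7 of 8 averaged over genotype. Among all tested genes it was above 0 in 50%, 49.6% and 51.2%, respectively. The averaged comparison uses the same libraries as the genotype comparisons and adds no samples to them. The median log2 fold change of the 8 members averaged over genotype was 0.30, and that of all tested genes was 0.0046.

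**Figure D2:**
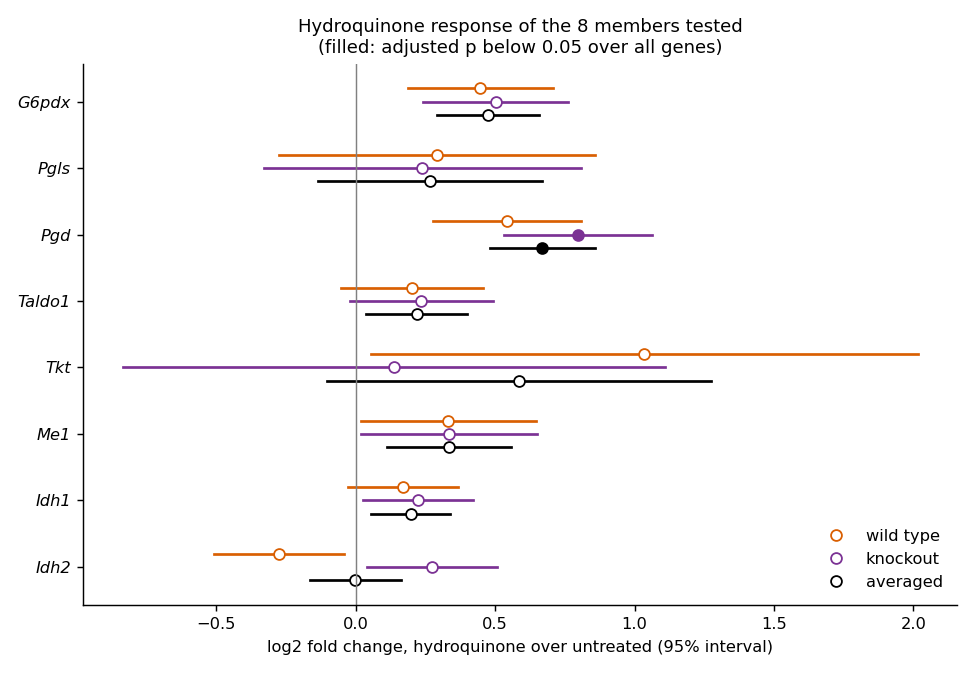
Log2 fold change of hydroquinone over untreated with its 95% interval for the 8 tested members, in wild type, in knockout and averaged over genotype. Filled points passed the threshold of adjusted p below 0.05 over all genes; these are Pgd in knockout (0.80) and averaged over genotype (0.67), and Idh2 is the member with intervals on opposite sides of 0 in the genotypes.

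Pgd (ENSMUSG00000028961, chromosome 4, 149149991 to 149166771, minus strand, GRCm38) encodes 6-phosphogluconate dehydrogenase, the last NADPH-making step of the oxidative branch. In untreated wild type its levels were 120.4, 115.7, 91.7 and 106.5 CPM, and with hydroquinone they were 160.7, 179.5, 142.0 and 150.7 CPM. In untreated knockout they were 101.6, 109.7, 98.7 and 88.9 CPM, and with hydroquinone 137.7, 199.4, 182.2 and 173.6 CPM. The highest untreated library, 120.4 CPM, thus lay below the lowest exposed library, 137.7 CPM, so the 8 exposed and 8 untreated libraries did not overlap. Averaged over genotype, Pgd rose 1.59-fold (95% interval 1.40 to 1.81). On the log2 scale the change was 0.67 (SE 0.09, edgeR adjusted p = 0.0037). In knockout it rose from 99.7 ± 8.6 to 173.2 ± 26.0 CPM, by 0.80 on the log2 scale (SE 0.12, edgeR adjusted p = 0.033). In wild type the means were 108.6 ± 12.6 and 158.2 ± 16.1 CPM, which differ by 0.54 on the log2 scale (SE 0.12, edgeR adjusted p = 0.536). The difference between those log2 fold changes, 0.25 (SE 0.17), did not pass the edgeR test (unadjusted p = 0.168, adjusted p = 1.00).

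In the labels, 7 libraries have an identifier with a letter and 9 have one without, and the averaged size of the Pgd change was similar in both forms. Its log2 fold change was 0.63 without a letter and 0.68 with one, and neither value passed on its own (edgeR adjusted p = 0.999 and 0.115). By genotype the values were 0.61 and 0.44 in wild type and 0.65 and 0.93 in knockout, in the same order of forms. The lettered wild-type value, and so part of the lettered average, rests on 1 exposed library. The averaged call held when any 1 library was left out, with log2 fold changes of 0.63 to 0.72 (edgeR adjusted p = 0.00098 to 0.016). The knockout call was lost in 11 of those 16 cases, with log2 fold changes of 0.72 to 0.89 over all 16 (edgeR adjusted p = 0.0080 to 0.189). The libraries whose removal ended it were untreated wild type replicates 2 and 4, exposed wild type replicates 1 and 4, each untreated knockout library, and exposed knockout replicates 2, 3 and 4. With the counts of the eyes of a mouse summed, so that each of 13 mice counts once, the log2 fold change was 0.68, and the call was lost (edgeR adjusted p = 0.105). In knockout the call was lost with the eyes summed (0.80, edgeR adjusted p = 0.278) and in a limma fit that treats the mouse as a random block (0.79, adjusted p = 0.051).

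Levels from other tissues were set beside the Pgd values. The exposed library with the least Pgd, knockout replicate 1, had the most rod RNA of its group (23039 CPM summed over the rod markers, against 264 to 383 CPM in the other knockout libraries with hydroquinone). The untreated library with the least Pgd, knockout replicate 4, had the most rod RNA of all libraries, 25156 CPM. In wild type the pairing went the other way. Exposed wild type replicate 2 had the most rod RNA of its group (4700 CPM) and the most Pgd (179.5 CPM). Untreated wild type replicate 3 had the least rod RNA of its group (1118 CPM) and the least Pgd (91.7 CPM). With the rod marker score as a covariate, the averaged log2 fold change of Pgd was 0.63 (edgeR adjusted p = 0.0049). With the corneal marker score as a covariate it was 0.66 (edgeR adjusted p = 0.002). Among exposed wild-type libraries, Pgd and the corneal sum had the same order, from 179.5 and 24779 CPM to 142.0 and 2609 CPM. Among exposed knockout libraries the orders differed. What part other tissues had in the Pgd values was not tested.

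G6pdx (ENSMUSG00000031400, chromosome X, 74409483 to 74429194, minus strand) encodes glucose-6-phosphate dehydrogenase, the enzyme that commits glucose-6-phosphate to the pathway. In untreated wild type its levels were 103.3, 85.0, 83.4 and 102.0 CPM, and with hydroquinone they were 148.0, 139.7, 112.2 and 109.7 CPM. In untreated knockout they were 86.2, 94.8, 83.6 and 84.7 CPM, and with hydroquinone 121.2, 145.5, 117.8 and 110.5 CPM. As for Pgd, the exposed and untreated libraries did not overlap, although the gap was small, from 103.3 to 109.7 CPM. Over both genotypes, groups of 8 with no overlap and higher values with hydroquinone were found for 2 of 8 members, Pgd and G6pdx, against 0.0715% of all tested genes. Averaged over genotype, the log2 fold change of G6pdx was 0.48 (SE 0.09), and it narrowly missed the threshold (edgeR adjusted p = 0.066). The fold was 1.39 (95% interval 1.22 to 1.58). The genotypes gave similar values, 0.45 in wild type (edgeR adjusted p = 0.802) and 0.50 in knockout (edgeR adjusted p = 0.864). Of 31 alternatives, only 3 called the averaged change. These were DESeq2 (adjusted p = 0.00022) and edgeR with the Krt12 level (adjusted p = 0.0045) or the corneal marker score (adjusted p = 0.00064) as a covariate. Both covariates were chosen after seeing the data. In each group, the 2 libraries with the highest corneal marker sum also had the highest G6pdx levels. What part corneal RNA had in these levels was not tested.

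Reads of G6pdx could be shared with other genes. On the opposite strand, Ikbkg overlaps 418 exon bases of G6pdx, which is 13.6% of them, and how the reads were assigned by strand is not given in the sources used here. Ikbkg held 25316 counts over all libraries against 46956 for G6pdx, and its averaged log2 fold change was 0.02 (SE 0.08, edgeR adjusted p = 0.972). The copy G6pd2, which matches 6.46% of the 50-base windows of G6pdx, held 3 counts in all.

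Pgls (ENSMUSG00000031807, chromosome 8, 71592176 to 71601092, plus strand) encodes 6-phosphogluconolactonase, which makes no NADPH itself. Its levels in wild type with hydroquinone were 35.1, 50.2, 16.6 and 23.8 CPM, so this group held both the highest and the lowest library of all 16. The untreated wild-type libraries ranged from 20.4 to 30.7 CPM, the untreated knockout libraries from 17.8 to 28.2 CPM and the exposed knockout libraries from 23.4 to 31.5 CPM. All groups overlapped. Averaged over genotype, the log2 fold change was 0.27 (SE 0.19, edgeR adjusted p = 0.914), and its wild-type value went from 0.29 to -0.03 without wild type with hydroquinone replicate 2. That library also had the highest corneal marker level. Pgls shares 20.6% of its exon bases with Fam129c on the same strand, which held 420 counts against 11825 for Pgls.

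The non-oxidative branch is represented by Taldo1 (ENSMUSG00000025503, chromosome 7, 141392199 to 141402968, plus strand) and Tkt (ENSMUSG00000021957, chromosome 14, 30548359 to 30574720, plus strand). Taldo1 had 399.2, 354.4, 393.2 and 397.0 CPM in untreated wild type, and 493.1, 462.2, 386.2 and 433.7 CPM with hydroquinone. In untreated knockout it had 466.5, 338.4, 387.0 and 333.0 CPM, and 394.7, 475.5, 458.4 and 467.1 CPM with hydroquinone. In wild type 1 exposed library lay within the untreated range, and in knockout 1 untreated library lay within the exposed range. Averaged over genotype, its log2 fold change was 0.22 (SE 0.08, unadjusted p = 0.021, edgeR adjusted p = 0.824).

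In wild type, Tkt had both the largest fitted difference of the 8 tested members and the largest standard error. In untreated wild type its levels were 684.8, 285.7, 390.6 and 628.4 CPM. With hydroquinone they were 1099.7, 2185, 350.5 and 442.1 CPM, so that replicates 1 and 2 lay above all untreated libraries and replicates 3 and 4 among them. In knockout they were 480.5, 547.6, 442.7 and 367.6 CPM without and 650.5, 548.0, 443.1 and 380.5 CPM with hydroquinone, and the groups overlapped almost fully. The log2 fold change was 1.04 in wild type (SE 0.46, unadjusted p = 0.040, edgeR adjusted p = 0.994) and 0.14 in knockout (SE 0.45, edgeR adjusted p = 1.00). The difference between them, -0.90 (SE 0.64), did not pass (edgeR unadjusted p = 0.184, adjusted p = 1.00).

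Tkt broadly moved with the corneal markers from library to library, and transketolase is known to be abundant in corneal epithelium. What part corneal RNA had in the Tkt values was not tested. All 7 markers of that list had a mean of at least 1 CPM and none was at 0 in any library. Their summed level was 2878 to 11251 CPM in untreated wild type, 2609 to 24779 CPM in wild type with hydroquinone, 4256 to 8087 CPM in untreated knockout and 2214 to 8044 CPM in knockout with hydroquinone. The libraries ranked 1, 2 and 3 for Tkt were also ranked 1, 2 and 3 for this sum and for Krt12, a corneal keratin. The match was not complete further down. Exposed knockout replicate 3 had the least Krt12 of all libraries (241 CPM), ranked 14 for the corneal sum and ranked 9 for Tkt. Exposed knockout replicate 1 ranked 4 for both Tkt and Krt12, and 7 for the corneal sum. Krt12 was at 10319 CPM in the library with the most Tkt and at 7606 CPM in the second. In the eyes of the first untreated wild-type mouse, the eye with 684.8 CPM of Tkt had 3923 CPM of Krt12 and the eye with 285.7 CPM had 536 CPM. With the Krt12 level as a covariate the wild-type log2 fold change of Tkt was 0.42 (edgeR adjusted p = 0.856), and with the corneal marker score it was 0.28 (edgeR adjusted p = 0.928). The value rested largely on 1 library: without wild type with hydroquinone replicate 2, the one with the most Tkt, it was 0.34 and did not pass either.

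**Figure D3:**
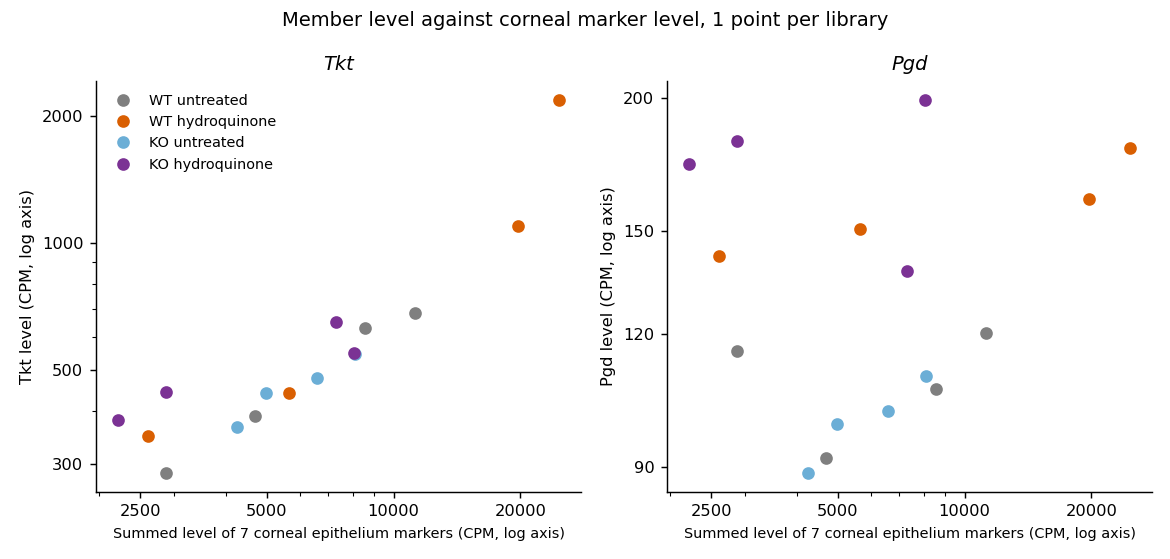
Level of Tkt (left) and Pgd (right) against the summed level of 7 corneal epithelium markers, both in CPM on log axes, with 1 point per library and colours for the groups. Tkt broadly follows the corneal sum, and the highest library has 2185 CPM of Tkt and 24779 CPM of corneal markers. Pgd in exposed libraries lies at 137.7 CPM or above at every corneal level. In exposed wild type, Pgd has the same order of libraries as the corneal sum, and in exposed knockout it does not. A knockout untreated point (547.6 CPM of Tkt) is almost covered by a knockout hydroquinone point (548.0 CPM).

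Me1 (ENSMUSG00000032418, chromosome 9, 86581371 to 86695953, minus strand) encodes cytosolic malic enzyme, which makes NADPH from malate. In untreated wild type its levels were 181.2, 236.9, 220.5 and 164.8 CPM, and with hydroquinone they were 240.6, 186.9, 293.6 and 290.7 CPM. In untreated knockout they were 243.5, 211.5, 227.0 and 211.4 CPM, and with hydroquinone 262.7, 267.2, 278.5 and 318.1 CPM. The knockout groups did not overlap, whereas in wild type exposed replicate 2 fell among the untreated libraries. Separation with higher values under hydroquinone was seen for 3 of 8 members in knockout (Pgd, G6pdx and Me1), against 1.18% of all tested genes, and for 2 of 8 in wild type (Pgd and G6pdx), against 1.13%. The log2 fold change of Me1 was 0.33 in each genotype and averaged (averaged SE 0.10, unadjusted p = 0.0060, edgeR adjusted p = 0.761). Me1 shares 22.9% of its 50-base windows with other loci, chiefly the gene models Gm7049 and Gm7329, so part of its reads are uncertain.

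Idh1 (ENSMUSG00000025950, chromosome 1, 65158616 to 65186500, minus strand) and Idh2 (ENSMUSG00000030541, chromosome 7, 80094846 to 80115392, minus strand) carry out the same reaction, oxidation of isocitrate with NADP, in the cytosol and in mitochondria. Idh1 had 114.0, 102.1, 119.2 and 97.2 CPM in untreated wild type and 130.3, 115.3, 116.3 and 124.6 CPM with hydroquinone. In knockout it had 104.4, 116.6, 97.8 and 94.4 CPM without and 112.3, 129.0, 117.1 and 124.1 CPM with hydroquinone. Within each genotype, 1 untreated library of Idh1 reached into the exposed range. Averaged over genotype, its log2 fold change was small, 0.20 (SE 0.07, unadjusted p = 0.0090, edgeR adjusted p = 0.776).

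Idh2 differed in sign between the genotypes. In untreated wild type its levels were 107.3, 85.6, 94.2 and 86.5 CPM, and with hydroquinone they were 77.7, 87.4, 65.9 and 77.7 CPM. In untreated knockout they were 85.5, 77.4, 90.3 and 70.1 CPM, and with hydroquinone 88.9, 98.8, 103.5 and 99.5 CPM. In each genotype 1 exposed library lay within the untreated range. The log2 fold change was -0.27 in wild type (SE 0.11, unadjusted p = 0.024, edgeR adjusted p = 0.994) and 0.27 in knockout (SE 0.11, unadjusted p = 0.024, edgeR adjusted p = 1.00), so that the average was -0.0006. The difference between the genotypes' changes was 0.55 on the log2 scale (SE 0.15, edgeR unadjusted p = 0.0030), and it did not pass over all genes (adjusted p = 1.00). At an unadjusted p below 0.05, Idh2 was the 1 of 8 members with a higher change in knockout, against 1.34% of all tested genes. In the alternatives run, this difference ranged from 0.47 to 0.66.

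The ratio of both isocitrate dehydrogenases within a library does not depend on how the library was scaled. Idh2 over Idh1 in CPM was 0.865 ± 0.065 in untreated and 0.636 ± 0.084 in exposed wild type. It was 0.787 ± 0.111 in untreated and 0.811 ± 0.051 in exposed knockout libraries. All 4 libraries of wild type with hydroquinone, at 0.567 to 0.758, lay below the lowest untreated wild-type library, at 0.790, and overlapped untreated knockout, at 0.664 to 0.923. The ratio of Pgd to G6pdx was 1.17 ± 0.14, 1.25 ± 0.12, 1.14 ± 0.06 and 1.41 ± 0.20 in the same order of groups, and the ranges of all groups overlapped. These ratios were not tested. How often the ratios of other genes separate in this way was not counted, so the separation is a description only.

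**Figure D4:**
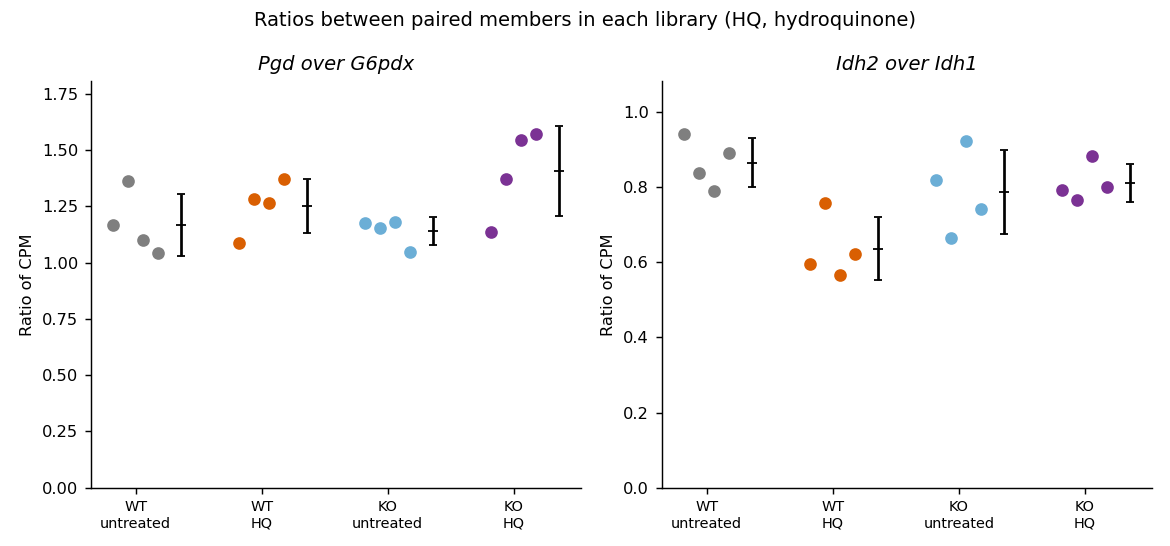
Ratio of Pgd to G6pdx (left) and of Idh2 to Idh1 (right), each in CPM, in every library of the 4 groups, with the group mean ± SD beside the points. Wild type with hydroquinone has the lowest mean Idh2 to Idh1 ratio, 0.636 ± 0.084, and overlaps untreated knockout, and the Pgd to G6pdx ratios of the groups overlap.

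Nnt (ENSMUSG00000025453, chromosome 13, 119335448 to 119408997, minus strand) encodes the transhydrogenase that makes NADPH in mitochondria from NADH. A deletion of several of its exons is known in the C57BL/6J substrain, and the labels give C57BL/6 with no substrain. The gene held 126 counts in all 16 libraries. Per library it had 8, 9, 10 and 4 counts in untreated wild type, and 4, 2, 14 and 4 with hydroquinone. In knockout it had 9, 9, 12 and 13 counts without and 4, 10, 8 and 6 with hydroquinone. These are low values in every group, and wild type with hydroquinone replicate 2 was under the floor of 3 counts, which corresponds to 0.085 to 0.142 CPM. Over mice, with the eyes of a mouse averaged, mean log2(CPM + 1) was lower by 0.13 with hydroquinone (difference -0.13, 2-sided exact permutation p = 0.182 with 8 exposed and 5 untreated mice). The smallest p these numbers of mice allow is 0.00078. Without wild type with hydroquinone replicate 3, the library with 14 counts, the difference was -0.17 (exact permutation p = 0.034). GENCODE vM21 lists a second Nnt model, ENSMUSG00000116207, over 47.4% of the exon bases of this gene, and its identifier was not among the genes counted.

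The loss of Sucnr1 was compared within each treatment. No member passed the edgeR test in knockout against wild type, untreated, with hydroquinone or averaged over treatment, and neither did any other gene (0% of all tested genes in each of these and in the interaction). DESeq2 called 0 members as well, and 3 other genes in the comparison with hydroquinone. At an unadjusted p below 0.05, 0 of 8 members differed in untreated mice (1.32% of all genes), 2 of 8 with hydroquinone (4.18%) and 0 of 8 averaged over treatment (2.96%). The pair with hydroquinone were Idh2 and Tkt, in opposite directions.

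With hydroquinone, Idh2 was higher in knockout, 97.7 ± 6.2 CPM against 77.2 ± 8.8 CPM in wild type, and these groups did not overlap. The log2 fold change was 0.34 (SE 0.11, unadjusted p = 0.0073, edgeR adjusted p = 1.00). It was the 1 of 8 members to separate upward there, against 1.72% of all tested genes. Tkt had a log2 fold change of -1.01 in the same comparison (SE 0.46, unadjusted p = 0.044, edgeR adjusted p = 1.00), which was -0.32 without wild type with hydroquinone replicate 2, and became 0.08 with the Krt12 level and 0.19 with the corneal marker score as a covariate. Pgd differed by -0.12 without hydroquinone (95% interval -0.39 to 0.14) and by 0.13 with it (95% interval -0.13 to 0.39). For G6pdx these differences were -0.10 (95% interval -0.36 to 0.16) and -0.04 (95% interval -0.30 to 0.22).

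Genes around NADPH were followed in lists chosen by function, with hydroquinone averaged over genotype. Among 14 enzymes that spend NADPH in defence, all were tested and 3 rose, against 0.0845% of all tested genes called in either direction. They were Cbr3, a carbonyl reductase, Nqo1, the quinone reductase, and Txnrd1, cytosolic thioredoxin reductase. Cbr3 rose from 10.6 ± 2.3 to 22.0 ± 4.6 CPM (SD, n = 8 libraries), a log2 fold change of 1.05 (edgeR adjusted p = 0.026). Nqo1 rose from 91.1 ± 12.8 to 145.2 ± 22.8 CPM, a log2 fold change of 0.67 (edgeR adjusted p = 0.032). Txnrd1 rose from 166.8 ± 17.0 to 258.0 ± 47.2 CPM, a log2 fold change of 0.63 (edgeR adjusted p = 0.033). The median log2 fold change of this list was 0.29, against 0.0046 over all tested genes. In this list 12 of 14 genes were above 0, against 51.2% of all tested genes. With the eyes of a mouse summed, none of the 3 passed (edgeR adjusted p = 0.272, 0.294 and 0.430, in the same order). Of 31 alternatives, 16 kept the call of Cbr3, 15 that of Nqo1 and 11 that of Txnrd1. Leaving out 1 library ended the call of Cbr3 in 10 of 16 cases (untreated wild type replicates 2 and 4, exposed wild type 1 and 4, untreated knockout 1, 3 and 4, exposed knockout 2, 3 and 4; edgeR adjusted p up to 0.090). The call of Nqo1 held only without untreated wild type replicate 3, exposed wild type replicate 2 or exposed knockout replicate 1 (up to 0.099 over the 16), and that of Txnrd1 only without the last 2 of these (up to 0.112).

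None of the other lists held a gene that passed. Among all tested genes, 51.2% were above 0 in this comparison, with a median log2 fold change of 0.0046. Of 13 other pentose phosphate genes, 10 were tested, 7 were above 0 and the median log2 fold change was 0.083. Their smallest p-values were those of H6pd (0.17), which encodes the dehydrogenase of the endoplasmic reticulum, Pgm2 (0.13) and Rbks (0.16), in log2 fold change. The transketolase-like genes Tktl1 and Tktl2 and the copy G6pd2 were not tested, with 24, 5 and 3 counts over all libraries. The 14 NAD-linked counterparts and genes of citrate and malate supply had a median of -0.046, with 5 above 0. The subunits of the NAD-linked isocitrate dehydrogenase had the smallest p-values there, with log2 fold changes of -0.18 for Idh3a, -0.15 for Idh3g and -0.12 for Idh3b (edgeR adjusted p = 0.823, 0.868 and 0.911).

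The counts above 0 that follow stand against the same 51.2% of all tested genes. In the folate route, which makes NADPH from one-carbon units, 4 of 8 genes were above 0 and the median was 0.023. Its named genes had log2 fold changes of 0.14 (Mthfd1), -0.62 (Aldh1l2) and -0.12 (Mthfd2l). Of 9 genes that supply NADP, 6 were above 0, and the named ones had values of 0.20 (Nampt), 0.35 (Naprt) and 0.07 (Nadk), with a median of 0.073. The 13 NADPH users in lipid synthesis and the visual cycle had a median of 0.067, with 10 above 0, and values of 0.22 (Tm7sf2) and -0.10 (Dhrs3). Of 12 genes of NADPH oxidases, which turn NADPH into superoxide, 9 were tested and 7 were above 0, with a median of 0.17. Cybb had a value of 0.49, Nox4 of 0.48 and Ncf1 of 0.38 (edgeR adjusted p = 0.901, 0.824 and 0.907). Cybb and Ncf1 are phagocyte genes, and 7 of 7 macrophage markers had a mean of at least 1 CPM, with none at 0 and a sum of 1039 to 2491 CPM in untreated and 1797 to 3517 CPM in exposed libraries, whose part in these values was not tested.

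**Figure D5:**
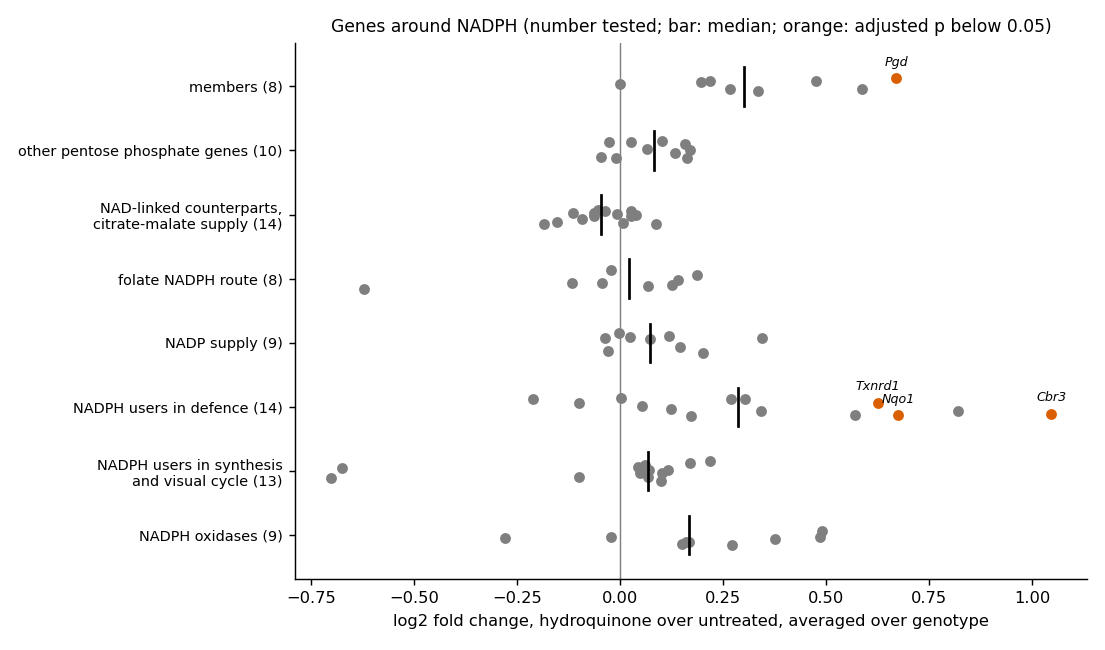
Log2 fold change of hydroquinone over untreated, averaged over genotype, for each tested gene of the 8 lists around NADPH, with the number tested in parentheses and the list median as a vertical bar. Orange points passed the threshold of adjusted p below 0.05 over all genes; these are Pgd among the members and Cbr3, Nqo1 and Txnrd1 among the NADPH users in defence, and the medians of the other lists lie between -0.046 and 0.17.

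The genes whose pattern over the 16 libraries was most like that of Pgd were found by the root mean square difference of log2(CPM + 1), each gene centred on its own mean. They were Blvrb (0.156), a biliverdin reductase, Txnrd1 (0.163), Srxn1 (0.177), which encodes sulfiredoxin, G6pdx (0.178) and Mocs1 (0.192). The median over all tested genes was 0.445. Among these, Srxn1 and Mocs1 rose with hydroquinone averaged over genotype, by log2 fold changes of 0.65 (edgeR adjusted p = 0.0008) and 0.61 (edgeR adjusted p = 0.032). Txnrd1 rose as well, as given above. Of 31 alternatives, 28 kept the call of Srxn1 and 11 that of Mocs1, which was lost in 14 of 16 cases with 1 library left out (edgeR adjusted p up to 0.112). Mocs1 also did not pass with the eyes summed (edgeR adjusted p = 0.394) or with the mouse as a block (limma adjusted p = 0.070). Blvrb had a log2 fold change of 0.57 and did not pass (edgeR adjusted p = 0.208). Of the other members, Taldo1 ranked 77, Idh1 117 and Me1 819 in likeness to Pgd, and Idh2, Pgls and Tkt ranked 2297, 3564 and 13061. These genes were picked for their likeness to Pgd in the same libraries, so a rise with hydroquinone is partly built into the choice. The points also share libraries, mice and depth, so this is a description of likeness only.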

How the data were processed

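RNA was sequenced from 16 single-eye RPE samples on an Illumina NovaSeq, per the labels' protocols. The deposited values are whole-number read counts per Ensembl gene (100% whole, with unequal totals), although the deposited table's name announces FPKM. The submitters' processing notes name STAR, Cufflinks, DESeq2 and mm10; versions, annotation and strand setting are not given in the sources used here. Symbols and coordinates (1-based) are from GENCODE vM21 (GRCm38), which matched 51719 of 51912 identifiers.

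Counts were tested with edgeR 4.0.16 (R 4.3.3): quasi-likelihood F test, TMM scaling, 1 mean per group over all 16 libraries, and a minimum mean of 1 CPM per gene (15380 genes, 99.8% of counts). P-values were adjusted by the Benjamini-Hochberg method over these genes in each of 7 contrasts, with a threshold of 0.05. Standard errors derive from the F statistic. Nnt, below the minimum, had an exact permutation test over 13 mice with a pseudocount of 1 CPM. Alternatives used DESeq2 1.42.0, limma 3.58.1 (mouse as a random block), other scalings, filters and covariates, and fewer libraries. The edgeR script was tested on simulated data.

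The members and lists were chosen with earlier results of these data known. The text names all members, the 3 genes of each list with the smallest averaged hydroquinone p, any past the threshold, and the 5 genes most like the member with the smallest p. A gene that this rule names in 1 list is not reported here. The covariates of corneal markers, the RPE marker scaling and the fit without 2 libraries were chosen after seeing the data. Replicates were numbered by accession order only.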

Additional observations from a re-analysis of the deposited data

Results flagged for a closer look

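In untreated wild type, replicate 2 had the lowest Taldo1 level, 354.4 CPM, and lay apart from the other libraries of its group, at 393.2 to 399.2 CPM. On the log2(CPM + 1) scale, its gap to the nearest library was 0.872 of the group's whole range, above Dixon's 95% critical value of 0.829 for 4 libraries. It was the 1 such gap among 36 sets of 4 libraries examined, where chance alone gives about 1.8.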

How the results depend on the processing

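The number of members past the threshold was 0 in wild type and became 1 (Pgd) with DESeq2. In knockout it was 1 (Pgd) and became 0 with no filter on low counts, with the identifier form as a covariate, with either identifier form alone, with RPE marker scaling, with only the groups compared, with counts summed per mouse and with the mouse as a limma block; it became 2 (Pgd and G6pdx) with Krt12 or the corneal score as a covariate, and lay between 0 and 1 with 1 library left out. Averaged over genotype it was 1 and became 0 with either identifier form alone, RPE marker scaling and the eyes summed, and 2 (Pgd and G6pdx) with Krt12, the corneal score or DESeq2. The fits on 1 form, on the groups compared or on summed eyes use fewer samples, and the fit on summed eyes also counts each mouse once. The cause of these changes was not tested for any of the fits. For genotype and the interaction it was 0 in every alternative run.

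Some differences changed sign; none of them had passed the threshold. Among lettered libraries, only 1 is of wild type with hydroquinone, and the reversals with that form rest on it in part. With lettered libraries only, Pgls (-0.28) and Tkt (-0.046) reversed in wild type. So did Tkt (-0.011), Idh2 (0.098), Naprt (-0.030) and Dhrs3 (0.10) averaged over genotype, and the Tkt interaction (0.072). Without letters, Nadk (-0.0057) and Cybb (-0.12) reversed. With wild type hydroquinone replicate 2 and knockout hydroquinone replicate 1 left out, Pgls in wild type was -0.028 and Tkt in knockout -0.0077. With 1 library left out, Pgls in wild type ranged from -0.029 to 0.50, Tkt in knockout from -0.0077 to 0.25 and averaged Idh2 from -0.033 to 0.036. Averaged Idh2, -0.0006, became 0.0021 with median-of-ratios scaling, 0.0064 with no filter, 0.0030 with Krt12, 0.023 with summed eyes, 0.0017 with the limma block and 0.00069 with DESeq2. The Tkt interaction became 0.20 with Krt12 and 0.23 with the corneal score, and Tkt in knockout against wild type with hydroquinone 0.084 and 0.19. The Nnt difference was -0.49 with a pseudocount of 0.1 CPM (exact permutation p = 0.152), and -0.17 to -0.094 with 1 library left out (exact permutation p = 0.034 to 0.339).

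Over all genes, edgeR called 1 gene in wild type, 7 in knockout and 13 averaged over genotype, and DESeq2 20, 14 and 39. Over all alternatives these counts ranged from 0 to 20, 0 to 14 and 0 to 39. The averaged calls held 11 higher genes of 13, against 4 of 7 with RPE marker scaling; in knockout it was 5 of 7 against 3 of 6.

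No paired analysis was possible because each mouse belongs to 1 group and the titles share no replicate numbers across groups. The correlation of the eyes of a mouse, estimated by limma, was 0.0067. Genotype could not be checked from Sucnr1 at this depth, 1 treatment group rests on 2 mice, and for Nnt a count of 3 is worth 0.085 to 0.142 CPM.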
